A study of Mus musculus with 12 samples.

Results

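One tumor from a TRAMP mouse was compared with wild type prostate of the same age. Members were chosen by the sample labels alone: 1 tumor library and 2 wild type libraries, replicates 0 and 1, which are 3 of the 12 libraries of the series. All 3 came from mice of 24 weeks on the control diet, AIN93M. The tumor was taken from the transgenic strain C57BL/6-Tg(TRAMP)8247Ng/J, and the lobe in which it grew is unknown. The wild type mice were C57BL/6, and ventral plus dorsolateral prostate was taken from them. For some comparisons 2 libraries of TRAMP prostate (ventral plus dorsolateral, 24 weeks, control diet, replicates 0 and 2) were set beside the tumor. The other 7 libraries (TRAMP prostate at 16 weeks, TRAMP prostate on phenethyl isothiocyanate, and 1 wild type prostate at 16 weeks) entered the fit only as a source of the spread between libraries, or are given as values. Total RNA from snap-frozen tissue was sequenced, and the values are FPKM, fragments per unit of transcript length and of library size.

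TRAMP mice carry the SV40 T antigens under the probasin promoter, which is active in androgen-responsive prostate epithelium. The T antigens bind the retinoblastoma proteins, which releases E2F transcription factors that drive S phase, and they also bind p53. Normal prostate luminal cells devote much of their RNA to secreted proteins, many of them induced by androgen, and each lobe has its own set. The ventral lobe makes spermine-binding protein (Sbp), the dorsal and lateral lobes make probasin (Pbsn) and beta-microseminoprotein (Msmb). Because the lobe of the tumor is unknown, a difference between lobes and a difference made by the tumor cannot be told apart in a secretory gene.

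The tumor has no replicate. In limma it was assumed to vary as much as the groups that hold 2 libraries, so an adjusted p tests whether this 1 library lies outside that spread, not whether TRAMP tumors in general do. Nothing in the labels says that the libraries of a group are separate animals. A gene was called when its Benjamini-Hochberg adjusted p from limma was under 0.05, and "rose" and "fell" are used below for called genes only. Log2 differences are of log2(FPKM + 1), tumor minus the mean of the wild types, with their standard error (SE). FPKM summed to 458256 and 458434 in the wild types and 407718 in the tumor, and relative depth, taken from the smallest step between values, was 0.681, 0.694 and 0.699. The 3 libraries were thus of like depth, while the 2 TRAMP prostate libraries were deeper, at 1 and 0.949. Genes such as Amd1 are listed at or near 0 in every library, so a listed 0 is not read as absence of the RNA.

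The tumor differed widely from wild type prostate. Of 13375 genes tested, 3533 rose (26.4%) and 3448 fell (25.8%), and the change was at least 2-fold in 1457 (10.9%) and 760 (5.68%) of them. Together these are 6981 genes, 52.2% of those tested. The even split between directions depended on the scaling. Quantile normalization gave 3127 higher and 3955 lower, and rescaling without the 50 most abundant genes gave 4049 and 2830. Changes of at least 16-fold numbered 32 upward and 16 downward. The median absolute log2 difference was 0.39 between the tumor and the wild types and 0.11 between the 2 wild types. Across genes the log2 values of the wild types correlated at r = 0.991 with each other and at 0.901 and 0.889 with the tumor, a description over genes of 3 libraries. Medians of the 20 chromosomes lay between -0.05 and 0.07 on the log2 scale, so no chromosome as a whole stood far from the others.

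**Figure D1:**
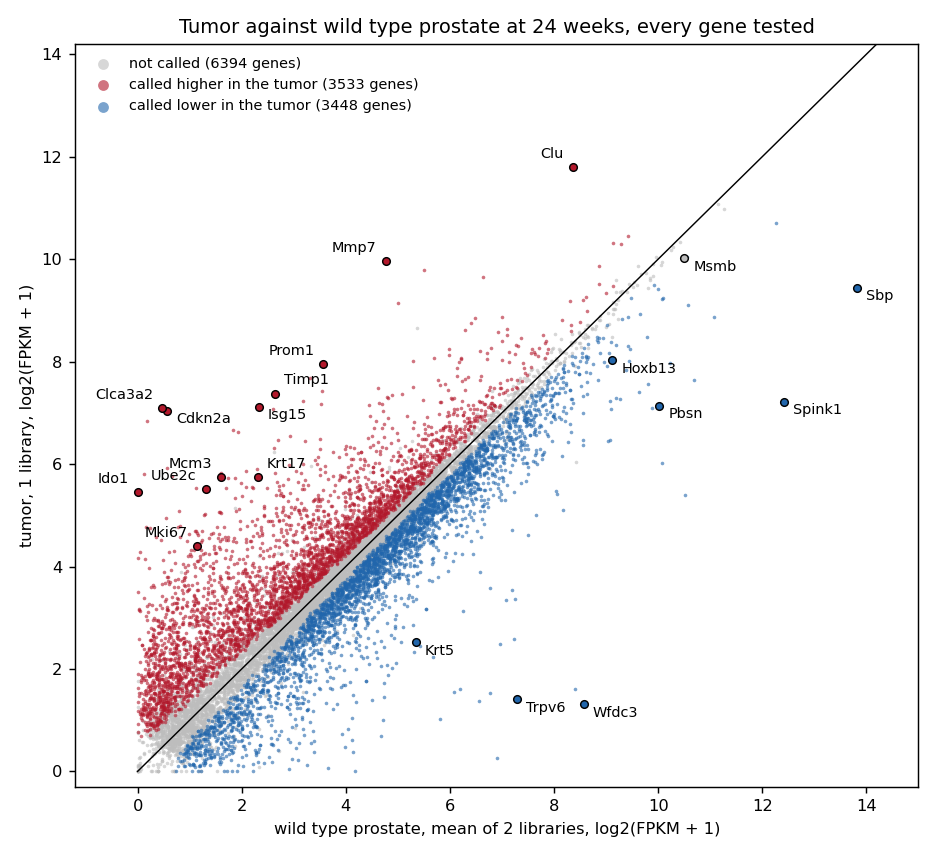
Each point is 1 of the 13375 tested genes, with the mean of 2 wild type libraries on the x axis and the 1 tumor library on the y axis, both as log2(FPKM + 1). Red points were called higher (3533) and blue points lower (3448), grey points were not called, and the line marks equal levels. Cdkn2a and Clca3a2 stand far above the line, and Sbp, Spink1, Wfdc3 and Trpv6 far below it.

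Among the largest rises were epithelial and inflammatory genes. Cdkn2a (chr4:89274471-89294653 in GRCm38, minus strand), which encodes the INK4A inhibitor of CDK4 and CDK6 and the ARF activator of p53, was at 0.404 and 0.555 FPKM in the wild types and 131 FPKM in the tumor. That is a 273-fold higher level, with a log2 difference of 6.48 (SE 0.34, limma adjusted p = 1.1e-05). The 8 TRAMP prostate libraries of both ages and diets ranged from 44.4 to 136 FPKM, so the tumor lay within their range for Cdkn2a. Clca3a2, of the calcium-activated chloride channel regulator family, went from 0.729 and 0.111 to 136 FPKM. Mmp7, a secreted matrix metalloprotease, went from 26.1 and 26.2 to 997 FPKM (log2 difference 5.20, SE 0.41, limma adjusted p = 4.7e-05). The wild type library of 16 weeks held 152 FPKM of Mmp7, above both older wild types and below the tumor. Ido1, which degrades tryptophan, was listed at 0 in both wild types and at 42.6 FPKM in the tumor. Prom1, the membrane protein CD133, rose from 13.0 and 9.05 to 247 FPKM. The gene of highest FPKM in the tumor was Clu, the extracellular chaperone clusterin, at 444 and 241 FPKM in the wild types and 3579 FPKM in the tumor, a smaller rise than these (log2 difference 3.45).

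**Figure D2:**
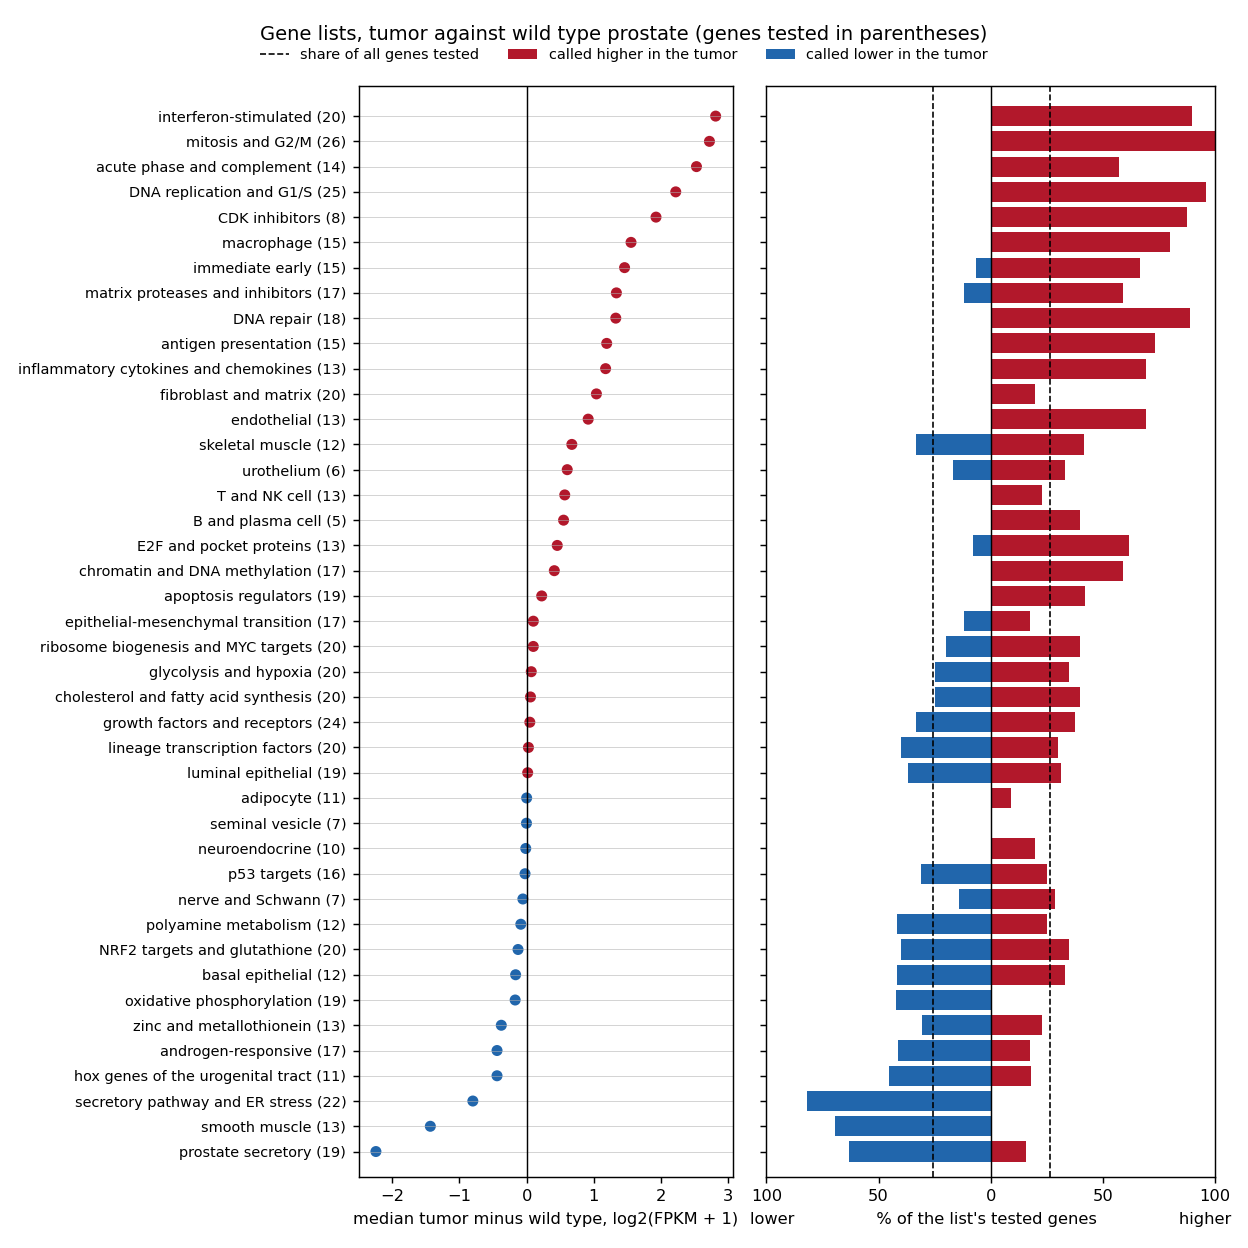
The left panel gives the median log2 difference, tumor minus wild type, of each gene list with at least 5 tested genes. The right panel gives the share of its tested genes called higher (red, to the right) and lower (blue, to the left), with dashed lines at the shares of all tested genes, 26.4% and 25.8%. The interferon-stimulated, mitosis, acute phase and DNA replication lists lie at the top, in that order, and the prostate secretory list at the bottom.

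Gene lists moved in 3 broad ways. Lists of cell division, interferon response and antigen presentation rose, lists of secretion and smooth muscle fell, and most lists of metabolism held calls in both directions. The median over all tested genes was 0.00, and the shares to set beside each list are the 26.4% called higher and 25.8% called lower of all genes. That median was -0.07 with quantile normalization and 0.08 when rescaled without the 50 most abundant genes, so small list medians depend on the scaling. Where a list below had no call in one direction against wild type, no gene of it had an unadjusted limma p under 0.05 in that direction either, except for 1 gene each in the secretory pathway and neutrophil lists.

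Most secretory genes of the normal gland fell. In the prostate secretory list 12 of 19 tested genes fell and 3 rose, with a median log2 difference of -2.24. The differences of its genes ranged from -7.26 to 5.68, so a large change upward was among them. The summed level of the list was 28619 and 30052 FPKM in the wild types, 6.25% and 6.56% of the library sum, and 3345 FPKM in the tumor, 0.821%. Sbp (chr17:23941672-23945607, plus strand), the ventral lobe's spermine-binding protein, was at 14577 and 14196 FPKM in the wild types and at 697 FPKM in the tumor. Its level was 20.7-fold lower, with a log2 difference of -4.37 (SE 0.14, limma adjusted p = 4.8e-06), and lowest in the tumor of all 12 libraries. Spink1, a secreted trypsin inhibitor, went from 5389.5 and 5619.7 to 148 FPKM, 37.3-fold lower. The whey acidic protein domain gene Wfdc3 had one of the largest falls, from 453 and 317 to 1.47 FPKM (log2 difference -7.26, SE 0.56, limma adjusted p = 4.7e-05), although members of its family share sequence and their reads may be split between them.

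The values of other secreted products varied. Msmb, the abundant protein of the lateral and dorsal lobes, was at 1390.4 and 1512 FPKM in the wild types and 1041 FPKM in the tumor, a log2 difference of -0.48 (SE 0.51) that was not called (limma adjusted p = 0.47). In a fit on the tumor and wild types alone it was called lower (adjusted p = 0.034). Pbsn, whose promoter drives the transgene, was at 664 and 1619.8 FPKM in the wild types and at 139.9 FPKM in the tumor (limma adjusted p = 0.027). The 2 wild types are far apart, and without replicate 1 the call was lost, with a log2 difference of -2.24 and an adjusted p of 0.11. Apof, apolipoprotein F, rose from 61.4 and 68.5 to 154 FPKM. Ventral and dorsolateral products thus had unequal values in the tumor, and the part of lobe in this cannot be told apart from that of the tumor.

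Other genes with high levels in the normal gland moved with Sbp. Trpv6 (chr6:41620624-41636405, minus strand), an epithelial calcium channel, fell from 167 and 144 to 1.65 FPKM, 94.3-fold lower. Kcnk3, a two-pore potassium channel, fell from 304 and 379 to 2.03 FPKM. Cbr2, a carbonyl reductase, fell from 1698 and 1623 to 199 FPKM. Azgp1, zinc-alpha-2-glycoprotein, fell from 913 and 881 to 189 FPKM. Odc1, which makes the putrescine from which the spermine of prostatic fluid is built, fell from 220.1 and 311 to 43.7 FPKM, while Smox, the spermine oxidase, rose from 8.71 and 9.06 to 27.7 FPKM. Of the 12 tested genes of polyamine metabolism 3 rose and 5 fell.

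The machinery that folds and exports proteins fell as well. In the secretory pathway and ER stress list 18 of 22 tested genes fell and none rose in the fit of all libraries, with a median of -0.80. In TRAMP prostate 19 of the 22 were called lower than wild type (22.0% of all genes), and 4 were called lower in the tumor than there. Hspa5, the main chaperone of the endoplasmic reticulum, was at 894 and 859 FPKM in the wild types and 356 FPKM in the tumor (log2 difference -1.30, SE 0.14, limma adjusted p = 0.00018). Pdia6, a disulfide isomerase, fell from 666 and 723 to 257 FPKM, and the transcription factor Creb3l4 fell from 42.5 and 30.7 to 9.92 FPKM. Xbp1, the transcription factor of the unfolded protein response, was at 217 and 229 FPKM in the wild types and 215 FPKM in the tumor and was not called.

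**Figure D3:**
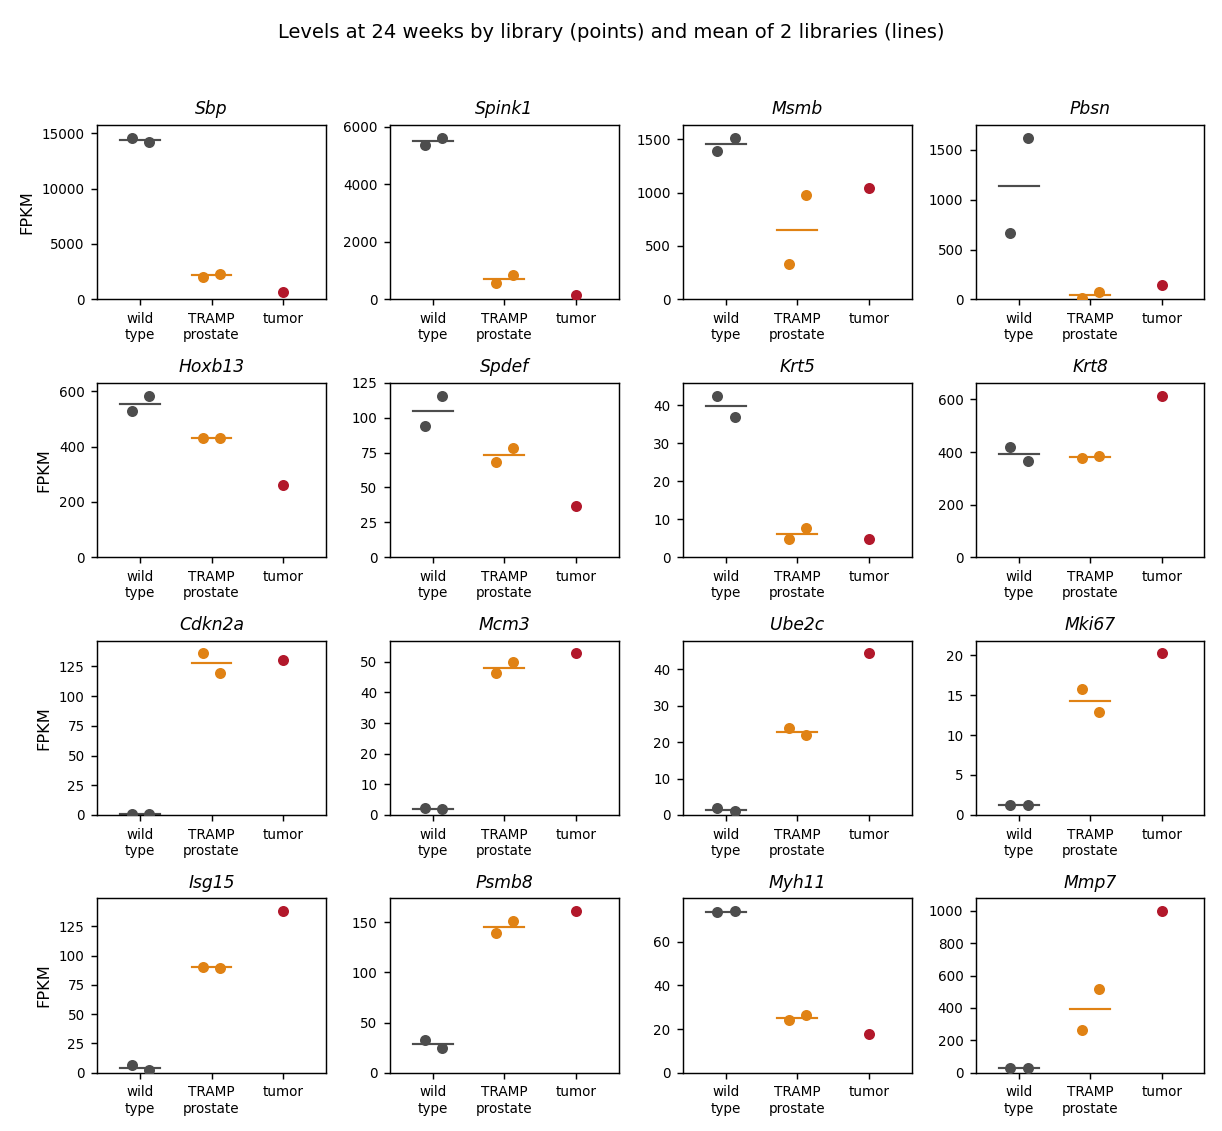
Each panel shows FPKM of 1 gene in the wild type (grey, 2 libraries), TRAMP prostate (orange, 2 libraries) and the tumor (red, 1 library), all at 24 weeks on control diet. Points are libraries, lines are the means of 2 libraries, and the y axes start at 0 and differ between genes. Sbp and Spink1 are lowest in the tumor, Cdkn2a and Mcm3 are similar in tumor and TRAMP prostate, and Krt8 and Mmp7 are highest in the tumor.

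Luminal keratins were at or above their wild type level in the tumor, while Krt5 and p63, which define basal cells, fell. Krt8, a simple-epithelium keratin of luminal cells, rose from 418 and 366 to 614 FPKM (log2 difference 0.65, SE 0.10, limma adjusted p = 0.0012). Its partner Krt18 was at 779 and 711 FPKM in the wild types and 755 FPKM in the tumor and was not called. Krt19 rose from 697 and 456 to 1281 FPKM. The basal cell keratin Krt5 fell from 42.5 and 36.9 to 4.76 FPKM, and Trp63, the basal lineage transcription factor p63, fell from 5.01 and 4.74 to 0.451 FPKM. Krt14, another basal keratin, was at 7.41 and 5.29 FPKM in the wild types and 5.37 FPKM in the tumor and was not called. In the basal list 4 of 12 tested genes rose and 5 fell. Krt17, a keratin of basal and stressed epithelium, went against Krt5: it rose from 4.86 and 3.19 to 52.8 FPKM (log2 difference 3.44, SE 0.31, limma adjusted p = 9.3e-05). Krt6a, a keratin of wounded and hyperproliferative epithelium that has a near-identical copy, rose from 0.346 and 0.0399 to 25.9 FPKM.

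Transcription factors moved in both directions. Of 20 tested lineage transcription factors 6 rose and 8 fell. Hoxb13, a homeobox gene of the prostate lineage, fell from 528 and 585 to 261 FPKM, and Spdef, an Ets factor of secretory epithelium, from 93.7 and 116 to 36.9 FPKM. Upward, Gata2 went from 6.68 and 9.14 to 55.6 FPKM and Sox4 from 7.17 and 4.93 to 40.6 FPKM. Pmepa1, a gene that both androgen and TGF-beta induce, rose from 2.21 and 1.61 to 26.4 FPKM. Of 17 tested androgen-responsive genes 7 fell and 3 rose, a median of -0.44. In the luminal list 7 of 19 fell and 6 rose.

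Neuroendocrine markers, which mark some late TRAMP tumors, were low. Of 22 genes in that list 10 passed the filter, and 2 of these rose. Among the 10 that passed, 3 averaged under 0.5 FPKM over the tumor and wild types and passed through other libraries. Another 6 genes of the list, which did not pass, are listed at 0 in the tumor, among them Neurod1 and Foxa2. Neurod1 and Foxa2 are among 3 genes of the list that are at 0 in both wild types as well. The summed level of the list was 16.3 and 17.0 FPKM in the wild types and 22.6 FPKM in the tumor. Chga, chromogranin A, was at 0.634 and 0.958 FPKM in the wild types and at 0.143 FPKM in the tumor, and Syp, synaptophysin, was at 0.684 and 0.781 FPKM and 0.505 FPKM. Neither was called (limma adjusted p = 0.65 and 0.74), but Chga was called lower in a fit on the tumor and wild types alone (0.044). Stmn2, a neuronal microtubule regulator, was one of the 2 that rose, from 0.530 and 0.828 to 5.57 FPKM. Without either wild type library in turn 1 of the 10 was called.

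Nearly all genes of DNA replication and mitosis rose. In the replication list 24 of 25 tested genes rose and none fell, with a median of 2.22. In the mitosis list all 26 tested genes rose, with a median of 2.72. Mcm3 (chr1:20802968-20820312, minus strand), a subunit of the replicative helicase, was at 2.23 and 1.87 FPKM in the wild types and 52.7 FPKM in the tumor (log2 difference 4.14, SE 0.12, limma adjusted p = 4.5e-06). Mcm5 went from 2.59 and 1.91 to 45.0 FPKM and Mcm6 from 11.6 and 9.63 to 144 FPKM. Ube2c, the ubiquitin-conjugating enzyme of the anaphase-promoting complex, rose from 1.82 and 1.16 to 44.4 FPKM. Ccnb2, cyclin B2, rose from 1.40 and 0.906 to 25.0 FPKM. Mki67, the proliferation antigen Ki-67, rose from 1.23 and 1.19 to 20.2 FPKM, and Top2a, the mitotic topoisomerase, from 8.25 and 8.86 to 30.6 FPKM. Every one of these genes was also high in TRAMP prostate: Mcm3 stood at 46.2 and 49.9 FPKM and Mki67 at 15.7 and 12.8 FPKM in its 2 libraries. Against TRAMP prostate none of the 25 replication genes was called by limma (4 had an unadjusted p under 0.05, 3 of them higher in the tumor), and 1 of the 26 mitosis genes was called higher (Ube2c, limma adjusted p = 0.049), a call that was lost without either TRAMP library (0.097 and 0.12).

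Promoter sequence was read for 3 pairs of genes from these lists and from the interferon list, to show the motifs that are known to go with each program. The sequences are the 180 bases just before the RefSeq start of each gene (GRCm38.p6), 5′ to 3′ on the gene's strand. Motifs were searched on both strands in the 250 bases before to 50 after the start of 10008 tested genes with a RefSeq promoter. For replication genes the capitals mark the E2F site forms TTTCGCGC, TTTGGCGC or TTTCCCGC on either strand, and overlapping matches on opposite strands run together. Mcm5 lies at chr8:75109329-75109508 (plus strand) and Mcm6 at chr1:128359706-128359885 (minus strand).
Mcm5: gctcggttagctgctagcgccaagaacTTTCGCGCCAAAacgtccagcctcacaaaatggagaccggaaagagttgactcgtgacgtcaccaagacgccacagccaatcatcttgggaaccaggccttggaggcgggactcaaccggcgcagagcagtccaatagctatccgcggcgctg
Mcm6: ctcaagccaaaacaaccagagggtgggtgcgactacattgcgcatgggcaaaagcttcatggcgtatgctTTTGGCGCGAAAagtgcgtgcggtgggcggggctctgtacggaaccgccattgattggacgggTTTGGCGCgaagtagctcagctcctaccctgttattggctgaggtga
Any of these 3 forms was found in 9 of 20 replication promoters (45.0%) and in 3.60% of all tested promoters. For mitosis genes the capitals mark CCAAT, the binding motif of NF-Y, and the cell cycle homology forms TTTGAA or TTCGAA. Ube2c lies at chr2:164769749-164769928 (plus strand) and Ccnb2 at chr9:70421555-70421734 (minus strand).
Ube2c: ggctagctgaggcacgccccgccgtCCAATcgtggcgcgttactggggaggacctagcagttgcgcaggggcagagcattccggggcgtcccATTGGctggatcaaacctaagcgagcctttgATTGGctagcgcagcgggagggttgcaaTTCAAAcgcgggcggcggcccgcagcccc
Ccnb2: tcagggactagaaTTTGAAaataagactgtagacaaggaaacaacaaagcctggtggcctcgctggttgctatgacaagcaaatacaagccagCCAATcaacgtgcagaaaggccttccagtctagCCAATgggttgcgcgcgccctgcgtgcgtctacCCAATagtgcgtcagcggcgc
Either homology form was found in 16 of 20 mitosis promoters (80%) and in 13.5% of all tested promoters, and CCAAT in 85.0% and 38.6%. CCAAT was not particular to mitosis genes. It was in 16 of 19 promoters (84.2%) of the secretory pathway list, which fell. Among all genes that rose it was found in 39.4% and among all that fell in 39.1%. For interferon-stimulated genes the capitals mark GAAANNGAA, the core of the response element. Isg15 lies at chr4:156200819-156200998 (minus strand) and Rsad2 at chr12:26456453-26456632 (minus strand).
Isg15: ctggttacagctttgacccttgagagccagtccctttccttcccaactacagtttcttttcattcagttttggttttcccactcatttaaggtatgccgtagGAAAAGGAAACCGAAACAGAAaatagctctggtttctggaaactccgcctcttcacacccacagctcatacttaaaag
Rsad2: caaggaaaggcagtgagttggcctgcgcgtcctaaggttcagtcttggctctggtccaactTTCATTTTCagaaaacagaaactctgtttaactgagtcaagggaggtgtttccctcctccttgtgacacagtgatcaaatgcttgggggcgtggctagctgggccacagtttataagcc
The core was found in 11 of 14 interferon-stimulated promoters (78.6%) and in 7.06% of all tested promoters. Among all genes that rose it was found in 9.17% and among all that fell in 5.61%. A match describes these letters and is not a measured binding site.

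Regulators of the cell cycle rose with it. E2f1 went from 3.14 and 3.18 to 14.4 FPKM, and 8 of 13 tested E2F and pocket protein genes rose. Rb1, the retinoblastoma gene, was at 6.29 and 7.31 FPKM in the wild types and 9.67 FPKM in the tumor (log2 difference 0.45, limma adjusted p = 0.037), a call lost without wild type replicate 0 (adjusted p = 0.13) and under 4 of the other settings. Of 8 CDK inhibitors 7 rose. Of 18 DNA repair genes 16 rose, with a median of 1.33. In TRAMP prostate 16 were also called higher than wild type, and none was called between tumor and TRAMP prostate. Of the chromatin and DNA methylation list 10 of 17 rose: Dnmt1, the maintenance methyltransferase, went from 7.19 and 7.61 to 38.7 FPKM and Ezh2, of the Polycomb complex, from 10.7 and 9.38 to 29.6 FPKM.

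Trp53 and its targets did not share a direction. Trp53, which encodes p53, was at 22.2 and 18.2 FPKM in the wild types and rose to 46.2 FPKM (log2 difference 1.16, SE 0.10, limma adjusted p = 8.6e-05). In the p53 target list, which counts Trp53 itself among those that rose, 4 of 16 tested genes rose and 5 fell, with a median of -0.02. The death receptor Fas, on this list, went from 9.13 and 7.68 to 33.4 FPKM. Cdkn1a, the CDK inhibitor p21, is counted with the CDK inhibitors and not in this list. It went from 6.53 and 5.09 to 25.6 FPKM. Perp, a junction protein of epithelia, fell from 157 and 183 to 69.0 FPKM. Of 19 apoptosis regulators 8 rose and none fell. Apaf1, the scaffold of the apoptosome, was one of them, at 2.18 and 2.32 FPKM in the wild types and 7.88 FPKM in the tumor.

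Interferon-stimulated genes rose together. Of 20 tested 18 rose and none fell, with a median of 2.81. Isg15, a ubiquitin-like modifier, was at 6.44 and 2.38 FPKM in the wild types and at 138 FPKM in the tumor (log2 difference 4.79, SE 0.58, limma adjusted p = 0.00033). Rsad2, the antiviral enzyme viperin, went from 5.40 and 1.10 to 51.6 FPKM, and Usp18, which removes ISG15 from proteins, from 3.03 and 1.30 to 55.8 FPKM. Wild type replicate 0 exceeded replicate 1 in each of these 3 genes, and the tumor lay far above both. TRAMP prostate was similar to the tumor, with Isg15 at 90.2 and 89.5 FPKM, and none of the 20 genes was called between tumor and TRAMP prostate by limma or had an unadjusted p under 0.05 there.

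Antigen presentation genes rose in the same way. The list holds genes of MHC class I and of class II, which were not counted apart. Of 15 tested genes 11 rose and none fell, with a median of 1.19. In TRAMP prostate 12 of the 15 were called higher than wild type (23.0% of all genes), with a median of 1.13. None was called between tumor and TRAMP prostate by limma. Psmb8, a catalytic subunit of the immunoproteasome, went from 32.8 and 25.1 to 161 FPKM (log2 difference 2.45, SE 0.19, limma adjusted p = 4.7e-05). Tap1, the peptide transporter, went from 14.7 and 13.0 to 54.4 FPKM. Nlrc5, the activator of class I genes, was at 0.483 and 0.279 FPKM in the wild types and 4.53 FPKM in the tumor. B2m, the class I light chain, was already abundant at 700.4 and 674 FPKM and stood at 1390.3 FPKM in the tumor.

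Macrophage markers moved the same way, and their part in the interferon and antigen presentation results was not tested. In RNA from whole tissue, more or fewer cells of a type and more or less RNA per cell cannot be told apart. Of 15 tested macrophage markers 12 rose, and 8 and 7 of them were called without wild type replicate 0 and replicate 1. Their summed level was 118.55 and 97.9 FPKM in the wild types and 421 FPKM in the tumor, and 1 of the 16 genes of the list, Marco, is listed at 0 in the tumor. C1qa, a complement component made by tissue macrophages, went from 16.5 and 15.7 to 67.7 FPKM and C1qb from 15.5 and 14.5 to 72.2 FPKM. In TRAMP prostate 11 of the 15 macrophage markers were called higher than wild type, and 1 was called higher in the tumor than there. Of 13 tested T and NK cell markers 3 rose, a share below the 26.4% of all genes, 1 without wild type replicate 1, and their summed level was 27.0 and 24.0 FPKM in the wild types and 59.7 FPKM in the tumor. In TRAMP prostate 9 of the 13 T and NK cell markers were called higher than wild type, and none was called between tumor and TRAMP prostate. Of 3 tested neutrophil markers none rose and 1 fell, 1 being higher at an unadjusted limma p under 0.05. Most neutrophil markers were under the filter and not tested. Among these, S100a8 and S100a9 were listed at 0 in both wild types and at 2.06 and 2.22 FPKM in the tumor. Of the whole list 7 genes were at 0 in both wild types and 2 in the tumor. Its summed level, most of it Lcn2, was 150 and 20.3 FPKM in the wild types and 413 FPKM in the tumor. Of 5 B and plasma cell markers 2 rose, 1 of them Sdc1, which is also an epithelial gene. Of 13 tested cytokines and chemokines 9 rose. Ccl7 and Ccl2, which attract monocytes, went from 0.172 and 0.226 to 11.1 FPKM and from 0.854 and 0.335 to 8.66 FPKM.

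Acute phase genes rose, with a wide spread between the wild types. Of 14 tested genes 8 rose, with a median of 2.53, and without wild type replicate 1 this became 4 higher and 1 lower. Lrg1, leucine-rich alpha-2-glycoprotein, was at 77.4 and 24.8 FPKM in the wild types and 877 FPKM in the tumor (log2 difference 4.29, SE 0.91, limma adjusted p = 0.0054). Lcn2, the iron-siderophore binder lipocalin 2, was at 135 and 11.4 FPKM in the wild types and 400.3 FPKM in the tumor and was not called (adjusted p = 0.058). Without wild type replicate 0 it was (log2 difference 5.02, adjusted p = 0.0036). Saa1, serum amyloid A1, had the same pattern, at 19.7 and 0.817 FPKM in the wild types and 74.6 FPKM in the tumor. Fgb, the fibrinogen beta chain, was listed at 0 in both wild types and at 17.0 FPKM in the tumor.

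Smooth muscle genes fell. Of 13 tested markers 9 fell and none rose, with a median of -1.43, and their summed level was 1046 and 990.4 FPKM in the wild types and 388 FPKM in the tumor. Myh11, smooth muscle myosin, was at 73.6 and 73.9 FPKM in the wild types and 17.9 FPKM in the tumor (log2 difference -1.98, SE 0.44, limma adjusted p = 0.0067). Cnn1, calponin, fell from 73.6 and 74.6 to 23.1 FPKM. The wild types were close to each other in both genes, and TRAMP prostate, at 24.2 and 26.3 FPKM of Myh11, was near the tumor. Normal prostate ducts are wrapped in smooth muscle, and the part of the share of stroma in each piece of tissue in this result was not tested.

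Vessel markers rose. The 20 tested fibroblast and matrix genes had a median log2 difference of 1.04, and 18 were above both wild types in the tumor. The share of them that was called was still under that of all genes. Of 13 tested endothelial markers 9 rose and none fell, with a median of 0.91. Emcn, endomucin, went from 0.911 and 1.30 to 7.35 FPKM, Plvap, of fenestrated endothelium, from 1.71 and 3.13 to 14.8 FPKM, and Egfl7 from 1.98 and 2.52 to 8.56 FPKM. Of 20 tested fibroblast and matrix genes 4 rose, a share below the 26.4% of all genes, with 2 rising without either wild type library and 15 in a fit on the tumor and wild types alone. Fn1, fibronectin, rose from 6.44 and 6.09 to 25.3 FPKM and Thy1 from 1.59 and 1.97 to 10.5 FPKM. Col3a1, a fibrillar collagen, was at 9.23 and 8.79 FPKM in the wild types and 61.2 FPKM in the tumor but was not called (limma adjusted p = 0.076), although it was in fits on the libraries of 24 weeks (0.018) and of the groups compared (0.0041). The 2 TRAMP prostate libraries stood at 22.2 and 66.7 FPKM of Col3a1, a spread that enters the test.

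Matrix proteases and their inhibitors rose beside Mmp7. Of 17 tested 10 rose and 2 fell, with a median of 1.33. Timp1, an inhibitor of metalloproteases, went from 5.31 and 5.16 to 165 FPKM (log2 difference 4.74, SE 0.96, limma adjusted p = 0.0042). Mmp3, a stromal protease, was listed at 0 in both wild types and at 10.3 FPKM in the tumor. Tgfb2, a growth factor, fell from 15.1 and 14.6 to 2.23 FPKM. Marker lists of neighbouring tissues differed. No seminal vesicle gene of 7 tested was called (7 of the 11 on the list are at 0 in the tumor), and of 11 adipocyte genes 1 rose. Of 12 skeletal muscle genes 5 rose and 4 fell, which became 2 and 2 without either wild type library. Adipoq, the adipocyte hormone adiponectin, was at 4.21 and 0.110 FPKM in the wild types and 1.42 FPKM in the tumor, so the wild types differed more from each other than from the tumor. Of 6 urothelium genes 2 rose and 1 fell, with a median of 0.60. The one that fell, Upk1a, a uroplakin, stood at 506 and 583 FPKM in the wild types and at 134 FPKM in the tumor.

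Immediate early genes and growth factors changed too. Of 15 tested immediate early genes 10 rose and 1 fell, with a median of 1.46. Ier3, a survival gene induced by stress, went from 9.44 and 9.67 to 66.2 FPKM (log2 difference 2.67, SE 0.20, limma adjusted p = 3.9e-05). The AP-1 subunits Jun and Fos went from 19.1 and 12.5 to 60.3 FPKM and from 4.21 and 0.818 to 22.3 FPKM, and Egr1 from 10.9 and 2.79 to 42.3 FPKM. Wild type replicate 0 was above replicate 1 in Fos, Jun and Egr1 and the tumor above both. As background, these genes respond quickly to the handling of tissue, and its part in this result was not tested. Of 24 growth factors and receptors 9 rose and 8 fell. Pdgfb, a ligand for receptors of pericytes, rose from 2.15 and 1.35 to 14.7 FPKM and was higher than in TRAMP prostate (3.64 and 3.43 FPKM, limma adjusted p = 0.0053). Met, the receptor of hepatocyte growth factor, rose from 5.87 and 6.63 to 15.2 FPKM, and Igfbp2, an IGF-binding protein, fell from 96.6 and 78.2 to 31.9 FPKM.

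Most metabolic lists held calls in both directions, and oxidative phosphorylation only downward ones. Of 20 tested NRF2 target and glutathione genes 7 rose and 8 fell. Gpx2, a glutathione peroxidase, rose from 10.2 and 6.29 to 47.4 FPKM. Aldh3a1, an aldehyde dehydrogenase, fell from 8.61 and 5.30 to 0.181 FPKM. Me1, malic enzyme, is counted with the cholesterol and fatty acid genes and rose from 3.82 and 3.96 to 29.5 FPKM. Fbp1, the fructose bisphosphatase of gluconeogenesis, rose from 0.248 and 1.01 to 53.7 FPKM. Of 19 oxidative phosphorylation genes 8 fell and none rose, by small amounts (median -0.17), and Ndufa1, a subunit of complex I, fell from 256 and 244 to 121 FPKM. Cad, the first enzyme of pyrimidine synthesis, fell from 62.8 and 75.2 to 23.4 FPKM. Glycolysis and hypoxia genes gave 7 higher and 5 lower of 20, and cholesterol and fatty acid genes 8 higher and 5 lower of 20.

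TRAMP prostate, which carries the transgene without being labelled tumor, differed from the tumor in fewer genes than wild type did. Across genes its libraries correlated with the tumor at r = 0.970 and 0.971. Against its 2 libraries 748 genes were called higher in the tumor (5.59%) and 825 lower (6.17%), while TRAMP prostate against wild type gave 3071 (23.0%) and 2943 (22.0%). Of the genes called higher in the tumor against wild type, 645 (18.3%) were also called higher against TRAMP prostate, which is 86.2% of the latter. Of those called lower, 738 (21.4%) were also called lower against TRAMP prostate (89.5% of the latter). These comparisons share the tumor library, and TRAMP prostate against wild type shares the wild types, so their values are given side by side and no agreement is read from them. In a fit on the tumor and the 2 TRAMP libraries alone no gene was called against TRAMP prostate by limma, while 2562 genes had an unadjusted p under 0.05. Each call in the next paragraphs therefore rests on the spread within all groups of the series.

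**Figure D4:**
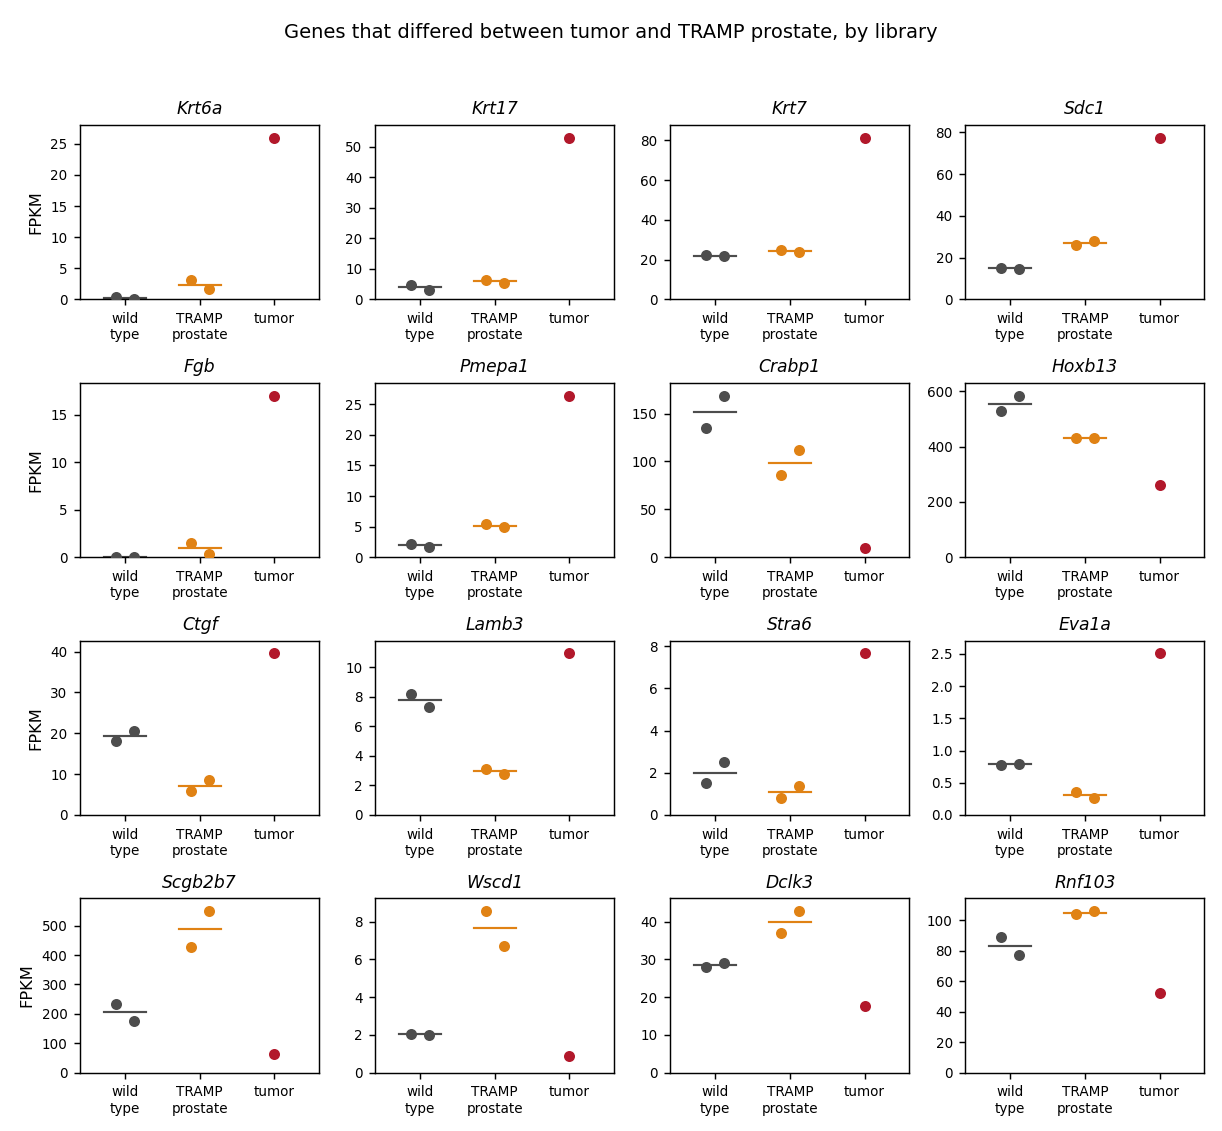
Each panel shows FPKM of 1 gene in the wild type (grey), TRAMP prostate (orange) and the tumor (red) at 24 weeks. Points are libraries, lines are means of 2 libraries, and y axes start at 0 and differ between genes. Krt6a, Krt17 and Fgb are far higher in the tumor than in any of the other 4 libraries, Crabp1 is far lower, and Ctgf and Scgb2b7 moved in opposite directions in tumor and TRAMP prostate.

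Several keratins and secreted proteins were higher in the tumor than in TRAMP prostate. Krt6a was at 3.13 and 1.59 FPKM in TRAMP prostate against 25.9 FPKM in the tumor, a log2 difference of 3.04 (SE 0.31, limma adjusted p = 0.0031). Krt17 stood at 6.48 and 5.35 FPKM in TRAMP prostate and 52.8 FPKM in the tumor (2.97, adjusted p = 0.0035). Krt7, a keratin of simple and ductal epithelium, was at 22.5 and 21.6 FPKM in wild type, 24.6 and 23.6 FPKM in TRAMP prostate and 81.3 FPKM in the tumor. The libraries of the first 2 groups lay close together for Krt7 and the tumor alone was high. Sdc1, the epithelial proteoglycan syndecan 1, rose stepwise by group mean, from 15.1 and 14.5 FPKM through 25.9 and 28.0 FPKM to 77.3 FPKM. Fgb was at 1.53 and 0.335 FPKM in TRAMP prostate, below the tumor (limma adjusted p = 0.0024). Sox4 and Pmepa1 were also called higher against TRAMP prostate, with log2 differences of 1.75 and 2.16.

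Among genes of the normal gland, several were lower in the tumor than in TRAMP prostate too. Of 19 prostate secretory genes 8 were called lower and none higher against TRAMP prostate by limma, while 3 were higher at an unadjusted p under 0.05. Crabp1, a retinoic acid binding protein, was at 135 and 169 FPKM in wild type, 85.7 and 112 FPKM in TRAMP prostate and 9.26 FPKM in the tumor, a log2 difference to TRAMP prostate of -3.27 (SE 0.19, limma adjusted p = 0.00056). Sbp stood at 2042 and 2324 FPKM in TRAMP prostate, between wild type and tumor (tumor minus TRAMP prostate -1.64, adjusted p = 0.0017, 0.069 with no filter on low genes). Hoxb13 was at 431 and 433 FPKM there and Cbr2 at 777 and 827 FPKM, both called lower in the tumor. The metallothioneins Mt1 and Mt2, which bind zinc, went the other way. Mt1 was at 861 and 929 FPKM in wild type, 388 and 289 FPKM in TRAMP prostate and 688 FPKM in the tumor, called higher against TRAMP prostate (limma adjusted p = 0.0076) and not called against wild type (0.067). It was called lower than wild type in a fit on those groups alone (adjusted p = 0.048) and with 3 wild types (0.032). Mt2 stood at 659.5 and 688 FPKM, 338 and 204 FPKM, and 652 FPKM.

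Some genes were called in opposite directions against wild type. In 15 genes the tumor was higher than wild type and TRAMP prostate lower, and in 9 the reverse. Ctgf, a matricellular protein induced by TGF-beta and YAP, was at 18.2 and 20.6 FPKM in wild type, 5.88 and 8.50 FPKM in TRAMP prostate and 39.5 FPKM in the tumor. Its call against wild type was lost without wild type replicate 0 (adjusted p = 0.067). Stra6, the retinol transporter, was at 1.54 and 2.49 FPKM, 0.816 and 1.38 FPKM, and 7.66 FPKM. Scgb2b7, a secretoglobin whose family members are similar in sequence, was at 234 and 177 FPKM in wild type, 427 and 549 FPKM in TRAMP prostate and 63.0 FPKM in the tumor. In none of these 3 genes did the libraries of the 3 groups overlap. They were chosen by calls between all 3 groups, so this follows largely from the choice and adds no support.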

How the data were processed

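Prostate RNA of 12 mouse libraries was sequenced. The deposited values are FPKM for 24421 genes per library. The submitters' processing notes name HISAT2, Picard, featureCounts, DESeq2 and the mm10 genome, with no versions. Which annotation and which total the scaling used is not stated in those notes or the labels. FPKM are not counts, so depth in reads is unknown and no count test was run.

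Values the authors deposited as FPKM were converted to log2(FPKM + 1), which understates changes of low genes. Genes averaging 0.5 FPKM or more in the 12 libraries (13375) were fitted with limma 3.58.1 in R 4.3.3, with 7 group means, 5 residual degrees of freedom, an intensity trend and two-sided Benjamini-Hochberg adjusted p-values. The lone tumor was assumed to vary like the groups with 2 libraries. Groups came from the labels. Python 3.11.15, pandas 2.3.3 and matplotlib 3.10.9 made the summaries and plots. Positions came from GENCODE M21 (GRCm38), which matched 95.6% of symbols, and promoters from RefSeq (GRCm38.p6), which matched 17224 symbols. The fit was tested on simulated data in which the tumor had the same spread as the other groups. Far fewer genes were changed there than were called here. The simulation therefore could not test the assumption about the spread of the tumor.

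Members and gene lists were chosen with earlier results of these data known. Named genes were, in each direction, the 20 called genes of largest change (unnamed gene models left out) and the 10 of largest change called with the same sign against wild type and TRAMP prostate; the 10 most abundant genes of each tissue; up to 6 each way called in opposite directions in tumor and TRAMP prostate; the 4 tested members of largest change in each list; defining cell type markers; and Cdkn2a, Mki67, Top2a, Pbsn, Krt8, Krt5, Chga, Syp, Trp53 and Rb1. Not all of these are described, and a few genes that the rule names are not reported here. Adipoq, Amd1, Apof, Azgp1, Hoxb13, Hspa5, Krt14, Krt18, Met, Msmb, Mt1, Mt2, Pdia6, Rsad2 and Xbp1 were chosen after their values were seen. Pseudocounts, filters, scalings, a GC correction, smaller fits, an added wild type library of 16 weeks and leaving out each library were tried as alternatives.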

Additional observations from a re-analysis of the deposited data

Results flagged for a closer look

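The 11 genes below were called against wild type in opposite directions in the tumor and in TRAMP prostate, so the difference between tumor and TRAMP prostate, in log2(FPKM + 1) with limma, is what drew attention to them. They were taken from the largest differences each way of 24 such genes. The tumor is 1 library, the comparisons share the wild types, and the part of lobe in any of these differences cannot be told apart from that of the tumor.

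In 5 genes the tumor was higher than wild type and TRAMP prostate lower. The difference was 2.33 (SE 0.28) for Ctgf and 2.06 (SE 0.22) for Stra6. It was 1.60 (SE 0.14) for Lamb3, a laminin chain of the epithelial basement membrane, which was at 8.23 and 7.35 FPKM in wild type, 3.12 and 2.79 FPKM in TRAMP prostate and 10.9 FPKM in the tumor. Eva1a differed by 1.42 (SE 0.14) and stood at 2.51 FPKM in the tumor, and Ehd3 differed by 1.36 (SE 0.15) and stood at 3.79 FPKM. The call against wild type was lost for Lamb3 without wild type replicate 1 (log2 difference 0.37). It was also lost with a pseudocount of 0.1 (limma adjusted p = 0.066), no filter (0.057), quantile normalization (0.10) and the fit on the groups compared (0.075). For Ehd3 it was lost with quantile normalization (0.17).

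In the other 6 the tumor was lower than wild type and TRAMP prostate higher. Scgb2b7 differed by -2.92 (SE 0.28). Wscd1 differed by -2.18 (SE 0.23), at 2.06 and 1.99 FPKM in wild type, 8.55 and 6.73 FPKM in TRAMP prostate and 0.899 FPKM in the tumor. Its call against wild type was lost without either wild type library (log2 differences -0.66 and -0.69). The Wscd1 call was also lost with a pseudocount of 5 (limma adjusted p = 0.17), no filter (0.074), rescaling without the 50 most abundant genes (0.054) and 3 wild types (0.056). Dclk3 differed by -1.12 (SE 0.13) and Rnf103, a ubiquitin ligase of the endoplasmic reticulum, by -0.99 (SE 0.13). Smaller differences were found for Pex10, a peroxisome assembly factor (-0.63, SE 0.09), and Slc22a5, the carnitine transporter (-0.56, SE 0.08).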

How the results depend on the processing

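Of the 99 named genes called against wild type, 90 kept their direction and their call under every alternative tried. The exceptions were Pbsn, Rb1, Egr1, Ctgf, Lamb3, Wscd1, Ehd3, Pex10 and Slc22a5, and the cause was not tested. Of 36 named genes called against TRAMP prostate, 33 kept the call under every alternative but the fit on the groups compared, the exceptions being Sbp, Cdkn1a and Ube2c. In that fit all 36 were lost, with limma adjusted p from 0.11 to 0.22. Alternatives for the comparison with TRAMP prostate, other than leaving out a library, were chosen after seeing the data. Leaving out a library leaves 1 in its group, which is then assumed to vary like the other groups.

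Without a wild type library the genes called higher numbered 3187 and 2898 and lower 3163 and 2886. A pseudocount of 5 reduced the genes with a called change of at least 2-fold from 1457 to 693 upward and from 760 to 375 downward, which follows from its construction, and the lists with a median of at least 0.5 from 23 to 15. None of these 23 lists changed sign under any setting, and 13 lists of smaller median did. Against TRAMP prostate the genes called higher fell from 748 to 0 in the fit on the groups compared, and those called lower from 825 to 0 there and to 535 in the fit on the libraries of 24 weeks. Leaving out a TRAMP library gave 484 to 603 higher and 566 to 614 lower. The largest distance of a chromosome median from the median of all genes was 0.064, and 0.075 with a filter of 2 FPKM, 0.118 with quantile normalization, 0.082 with the GC correction and 0.071 to 0.078 without a wild type library.

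Some uncalled genes gained a call. In the fit on the groups compared these were Msmb (-0.48, adjusted p = 0.034), Chga (-0.65, 0.044), Mt1 (-0.38, 0.048) and Col3a1 (2.64, 0.0041). Col3a1 was also called in the fit on the libraries of 24 weeks (0.018), Mt1 with 3 wild types (-0.44, 0.032), Krt18 with quantile normalization (0.24, 0.038), Lcn2 with a pseudocount of 5 (0.046) and with quantile normalization (0.043), and both Lcn2 (0.0036) and Saa1 (0.022) without wild type replicate 0. Other uncalled genes changed sign. Xbp1 was at 0.17 with quantile normalization, 0.038 without the 50 most abundant genes and 0.019 with 3 wild types. Mt2 was at 0.14 and 0.041 under the first 2 of these. Krt18 was at -0.030 with the GC correction and from -0.045 to 0.087 without a wild type library, and Krt14 from -0.40 to 0.017. Adipoq was at -0.10 with a pseudocount of 5, -0.27 with quantile normalization and from -1.11 to 1.12 without a wild type library. No paired analysis was possible because the tumor is 1 library and shares no replicate number with the wild types.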
